A study of Mus musculus with 20 samples.

Results

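The colony-stimulating factor (CSF) receptors and ligands described here are 6 genes taken by name from a table of 55487 gene identifiers: the receptor genes Csf1r, Csf2ra, Csf2rb and Csf3r and the ligand genes Csf1 and Il34. RNA of mouse cells labelled microglia was sequenced in bulk from 10 mice, with 1 cortex-labelled and 1 brainstem-labelled library from each, 20 libraries in all. The end-stage groups were 2 VE mice, M1376 and M1524 (Braf VE; CX3 HET), and 2 control mice, M1375 (Braf VE; CX3 WT) and M1521 (Braf WT; CX3 HET), and the labels give no age for that stage. The groups at 2 months were 3 VE mice, M2617, M2621 and M2624 (Braf VE; CX3 HET), and 3 control mice, M2618, M2629 and M2633 (Braf WT; CX3 HET). VE is the V600E form of the Braf kinase, switched on in these mice by Cx3cr1-CreER, which acts in microglia and other cells that express Cx3cr1. Per the labels' protocols the dams of all mice received 37.5 mg per kg 4-hydroxytamoxifen at embryonic day 9.5, so, with CX3 read as the locus of Cx3cr1-CreER, among the controls M1375 had the Braf allele but no Cre, and each of the others had Cre but no Braf allele. Per the same protocols the injection targets erythro-myeloid progenitors, the embryonic cells that give rise to microglia. By that design cells of other origin would keep the unrecombined allele, which was not tested here.

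CSF1 and IL-34 are the ligands of CSF1R, the receptor tyrosine kinase that microglia need to survive. The receptor for GM-CSF (the product of Csf2) pairs a specific alpha chain, CSF2RA, with the common beta chain, CSF2RB, which the receptors for IL-3 and IL-5 also use, and it signals through JAK2 and STAT5. CSF3R is the receptor for G-CSF (the product of Csf3) and is best known from neutrophils. In the brain IL-34 is known mainly as a product of neurons.

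The labels of the 2-month mice conflict. For 5 of the 6 mice at 2 months, the sample record gives a mouse number in its title that differs from the number in the name of its column of counts. Here each mouse bears the number of its column and has the genotype the labels give to that number; read by the sample record instead, M2617 and M2621 would be controls and M2618 and M2633 would be VE, so genotype changes for 4 mice. The 2-month genotype difference of each tested member within a region label is therefore given under both readings, and other 2-month genotype results go by mouse number unless stated otherwise. The region labels also meet a contrary measurement: a list of hindbrain genes, among them Hox genes, summed to 2.02 ± 0.841 CPM (counts per 1000000 counts of a library) under the cortex label and 0.688 ± 0.337 CPM under the brainstem label (SD over 10 mice). The sum was the larger one under the cortex label in each of the 10 mice (exact sign-flip test, 2-sided, p = 0.00195, the smallest that 10 pairs allow). Forebrain genes summed to 0.631 ± 0.443 CPM under the cortex label and 0.713 ± 0.561 CPM under the brainstem label (same exact test, p = 0.762). All region differences below run by the label.

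The promoters of Csf2ra, which had the largest mean difference between regions, and of Csf1, which had the largest difference between genotypes, are shown as 250 bases up to the start site, from RefSeq on GRCm38.p6. Csf2ra lies on the minus strand and its window is chr19:61228419-61228668, of which the last 11 bases fall inside the longest GENCODE model of the gene. Csf1 lies on the minus strand and its window is chr3:107760470-107760719. Capitals mark matches to 3 motifs searched on both strands: the core of PU.1 (GAGGAA), C/EBP (TTNNGNAA) and AP-1 (TGANTCA).
Csf2ra promoter: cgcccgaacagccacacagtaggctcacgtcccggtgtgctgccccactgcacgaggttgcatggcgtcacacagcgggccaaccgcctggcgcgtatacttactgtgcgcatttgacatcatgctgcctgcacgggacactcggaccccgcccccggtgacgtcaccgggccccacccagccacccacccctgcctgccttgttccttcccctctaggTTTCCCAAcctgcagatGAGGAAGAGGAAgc
Csf1 promoter: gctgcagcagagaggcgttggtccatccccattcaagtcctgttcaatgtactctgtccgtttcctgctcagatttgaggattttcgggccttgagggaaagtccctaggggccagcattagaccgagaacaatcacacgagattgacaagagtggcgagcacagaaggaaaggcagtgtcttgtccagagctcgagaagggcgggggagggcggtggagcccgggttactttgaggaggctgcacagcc
The Csf2ra window held 2 adjoining PU.1 cores next to the start site and 1 C/EBP match on the other strand, and the Csf1 window held no match to these letters. Among 32851 promoters of the same length, 23.3% held the PU.1 core, 36.8% the C/EBP letters and 6.7% the AP-1 letters, so such matches are common. The window of Csf3r, not shown, held 1 PU.1 core. That core lay in, or reached into, the 109 bases of the window that fall inside the longest GENCODE model of the gene. The windows of Csf1r, Csf2rb and Il34 were not searched.

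On GRCm38, Csf1r lies at chr18:61100598-61132149 (plus strand), Csf2ra at chr19:61223957-61228429 (minus), Csf2rb at chr15:78325752-78353847 (plus), Csf3r at chr4:126024550-126044440 (plus), Csf1 at chr3:107741048-107760469 (minus) and Il34 at chr8:110741829-110805924 (minus), all protein-coding in GENCODE M21. The merged exons span 5.77 kb for Csf1r, 2.87 kb for Csf2ra, 7.28 kb for Csf2rb, 3.61 kb for Csf3r, 5.28 kb for Csf1 and 1.96 kb for Il34. Csf1r shares 873 exonic bases, 15.1% of its exonic length, with Hmgxb3 on the opposite strand, and without a stated strand setting reads there cannot be told apart. Csf2rb has a close copy beside it, Csf2rb2, a beta chain particular to the mouse IL-3 receptor: of 4801 windows of 100 bases along the longest Csf2rb transcript, 334 (7.0%) also occur in Csf2rb2, and of 4851 windows of 50 bases, 892 (18.4%) do. How the counting treated reads from such stretches is not given in the sources used here, so counts of both beta chains are uncertain.

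The libraries held 9.4e6 to 21.2e6 counts each. Where a gene has 0 counts, up to 3 remain possible, equal to 0.147 to 0.318 CPM by library (counting error only). Markers of microglia, among them Tmem119 and P2ry12, summed to 26400 to 58400 CPM with none at 0 in any library. Neutrophil markers summed to 0 to 18.1 CPM, with Ly6g at 0 in 20 libraries and S100a8 at 0 in 18. CPM values here are scaled by TMM normalization (trimmed mean of M-values), differences are on the log2 scale with their standard error, and a gene is called where edgeR's quasi-likelihood test gives an adjusted p under 0.05 over the 16595 genes that passed a filter on low counts. The mice are separate animals. Tests between region labels compared libraries within each mouse (mouse as a block), so their p-values measure how far the within-mouse differences vary between mice. Tests of genotype, stage and their interaction had no term for the mouse. Their estimate of spread therefore treats the cortex-labelled and brainstem-labelled libraries of the same mouse as independent, which they are not. In bulk RNA of this kind, fewer cells of a type and less RNA per cell cannot be told apart.

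Per length of exon, Csf1r stood far above the other members. Its median over the 20 libraries was 1830 CPM per kb (range 1250 to 2480), and at 10600 CPM it ranked 5 among the 16595 genes tested. Csf3r followed at a median of 187 CPM per kb (107 to 294), Csf2ra at 44.5 (16.8 to 157), Csf2rb at 19.2 (10.1 to 45.7) and Csf1 at 3.98 (1.9 to 25.1). The ranges of Csf1r and Csf3r did not overlap. Those of the other neighbouring pairs overlapped between libraries, but within each of the 20 libraries the order was the same. Csf3r was 1.07-fold to 9.85-fold of Csf2ra, Csf2ra 1.24-fold to 4.83-fold of Csf2rb and Csf2rb 1.82-fold to 11.3-fold of Csf1 on this scale.

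Il34, the second CSF1R ligand, was close to absent from these libraries. It had 7 counts in all, 4 of them in the cortex-labelled library of VE mouse M2624 and 1 each in the cortex-labelled library of VE M1376 and the brainstem-labelled libraries of VE M2621 and control M2633. The highest of these values was 0.206 CPM, and Il34 did not pass the filter, so 5 of the 6 members were tested. The ligands of the other receptors were as scarce: Csf2 had 5 counts in total, all in cortex-labelled libraries, and Csf3, Il3 and Il5 had 0 counts in all 20. Csf1 was the one ligand of these receptors with more than a few counts.

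**Figure D1:**
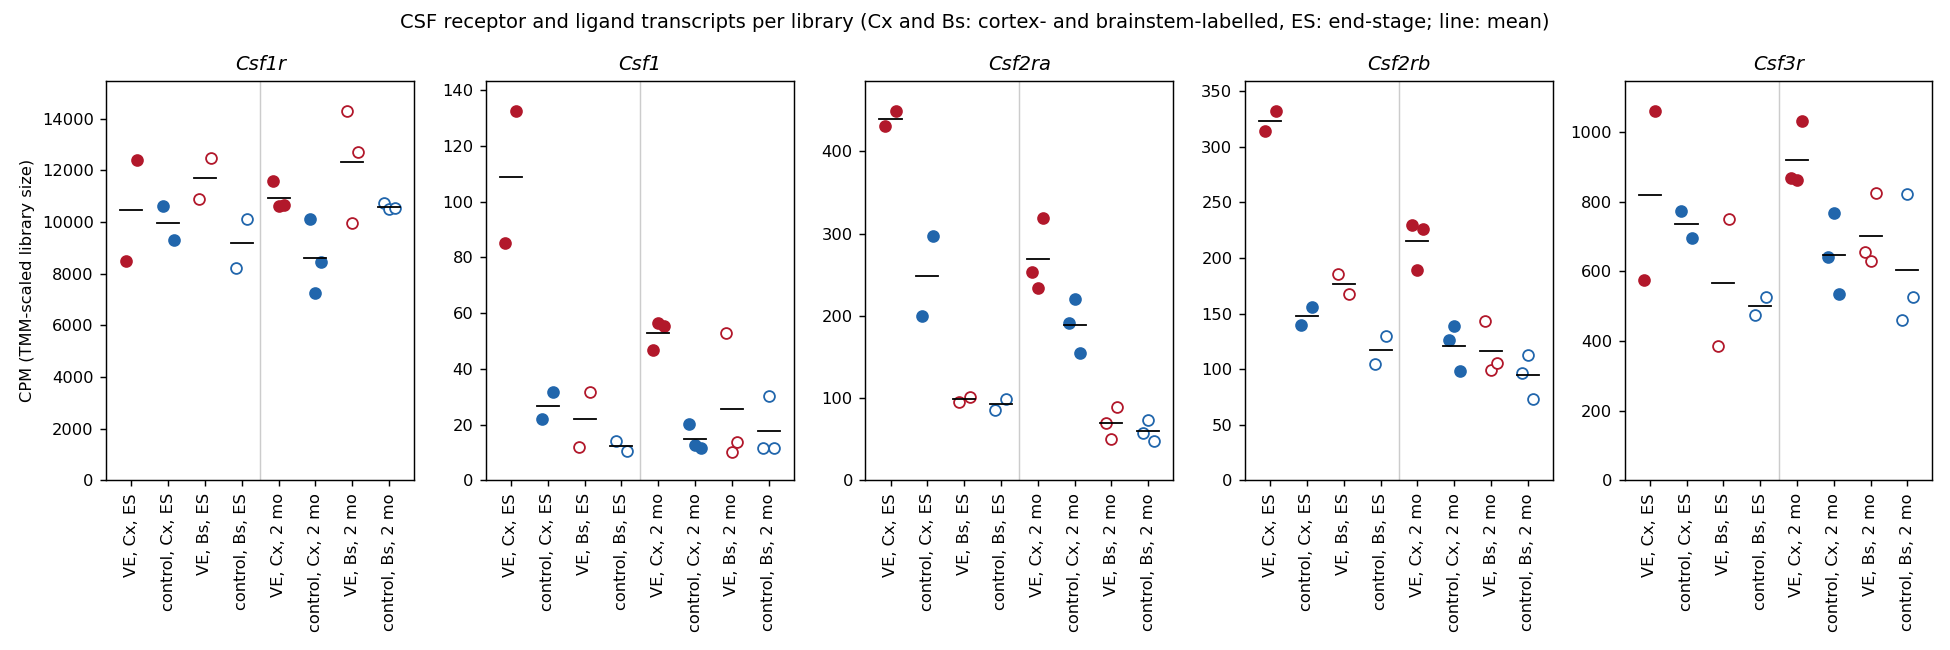
CPM (TMM-scaled, vertical axis from 0, a scale per gene) of the 5 tested members in each of the 8 groups (2-month genotype by mouse number), with VE in red, control in blue, filled points for cortex-labelled and open points for brainstem-labelled libraries, and lines for group means. Csf1, Csf2ra and Csf2rb are highest in the cortex-labelled libraries of VE end-stage mice, where Csf1 reaches 133 CPM, while Csf1r lies between 7240 and 14300 CPM throughout.

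Csf2ra, the alpha chain of the GM-CSF receptor, had the largest mean difference between the region labels among the members, and by p-value it ranked 1 of the 16595 genes tested. At end-stage the cortex-labelled libraries of VE mice M1376 and M1524 had 430 and 449 CPM, against 95.6 and 101 CPM in their brainstem-labelled libraries, and those of controls M1375 and M1521 had 199.8 and 297 CPM against 86.0 and 98.6 CPM. At 2 months the cortex-labelled libraries of VE mice M2617, M2621 and M2624 had 254, 234 and 319 CPM, against 70.1, 50.8 and 88.9 CPM in their brainstem-labelled libraries. Those of controls M2618, M2629 and M2633 had 192, 221 and 154 CPM against 57.6, 73.7 and 48.1 CPM. Every cortex-labelled library lay above every brainstem-labelled one, and the fold within a mouse ran between 2.32 and 4.61 with a median of 3.46. Cortex-labelled minus brainstem-labelled was 1.80 ± 0.10 (SE, 10 mice, mouse as a block in edgeR's quasi-likelihood test, adjusted p = 2.95e-07).

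Of the 5 members tested, 4 were called between regions and all 4 were higher in cortex-labelled libraries, where 14.3% of all genes were called, 8.09% as higher and 6.25% as lower. Csf2rb, the common beta chain, was higher in the cortex-labelled library of 10 of 10 mice, by 1.2-fold to 2.13-fold (0.62 ± 0.09 on the log2 scale, adjusted p = 0.000794, edgeR's quasi-likelihood test), and with Csf2ra it is 1 of 2 members higher in all 10 mice, as were 3.51% of all genes, while 2.31% of all genes were lower in all 10. Its cortex-labelled libraries had 98.1 to 333 CPM, and its brainstem-labelled libraries 73.4 to 186 CPM, so that the 2 sets overlap and the difference shows within mice. Csf3r, the G-CSF receptor, was higher in the cortex-labelled library of 9 of 10 mice, by 0.38 ± 0.08 (adjusted p = 0.00667, same test), the exception being control M2629 with 769 CPM against 823 CPM. Csf2ra and Csf2rb were called under all 15 alternative settings, whereas Csf3r was not called without the mouse block (adjusted p = 0.0963) or without the 4 mice of conflicting genotype (0.0712).

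Csf1, the ligand detected in these libraries, was less regular between regions. The log2 difference was 1.13 ± 0.35 (adjusted p = 0.0460, edgeR's quasi-likelihood test, 10 mice), it was higher in the cortex-labelled library of 7 of 10 mice, and the fold within a mouse ran between 0.422 and 7.12. Control M2629 had 12.8 CPM in its cortex-labelled and 30.2 CPM in its brainstem-labelled library, and VE M2617 had 46.9 against 52.9 CPM. The call was lost in 8 of the 15 alternatives, among them leaving out any 1 of M1375, M1376, M1521, M1524, M2618, M2621 or M2624 (adjusted p 0.0528 to 0.108).

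Csf1r, the receptor of CSF1, was not called between regions. It had the lower value in the cortex-labelled library of 8 of 10 mice, with a log2 difference of -0.15 ± 0.08 (adjusted p = 0.233, edgeR's quasi-likelihood test), and its fold within a mouse stayed between 0.69 and 1.29. Without control M1375, in which the cortex-labelled library was higher (10600 against 8225 CPM), Csf1r was called lower at -0.21 (adjusted p = 0.0455).

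Markers of other cells moved with the region labels too. A list of 10 monocyte markers summed to 6.94 to 948 CPM (median 84.7) in cortex-labelled and 5.2 to 137 CPM (median 15.8) in brainstem-labelled libraries, with Ly6c2 at 0 in 13 of the 20 libraries. By median, Fn1 (8.73 and 0.196 CPM) and Ms4a4c (21 and 4.73 CPM) were higher under the cortex label. Ccr2 (1.47 and 3.07 CPM), Plac8 (2.19 and 2.87 CPM) and F13a1 (0.491 and 0.677 CPM) were lower there. A list of 10 markers of border macrophages summed to 2.79 to 282 CPM (median 48.3) and 1.41 to 38.3 CPM (median 10.7). Its most abundant gene, Siglec1, had medians of 18 and 2.08 CPM. Ms4a7 (3.09 and 0.478 CPM), Mrc1 (2.63 and 1.7 CPM), Cbr2, Pf4, Cd163 and Clec12a were also higher under the cortex label by median. Lyve1 (0.228 and 0.221 CPM) was near equal, and F13a1, which both lists hold, and Cd209f (0 and 0.239 CPM) were lower there. Neutrophil markers had medians of 0.382 CPM in cortex-labelled and 0.452 CPM in brainstem-labelled libraries, beside a Csf3r range of 385 to 1060 CPM. Their highest sum, 18.1 CPM, was in the brainstem-labelled library of control M2629, the exception for Csf3r named above. Oligodendrocyte markers were higher in the cortex-labelled library of 9 of 10 mice (medians 253 and 205 CPM). Of these, Mbp (54.8 and 30.9 CPM) and Mag (48.2 and 44.2 CPM) were higher there by median, and Cnp (119 and 127 CPM) was lower. Markers of oligodendrocyte precursors were higher there in 8 of 10 mice and lower in 2 (medians 3.5 and 0.868 CPM). Other lists were lower in the cortex-labelled library of all 10 mice. Microglia markers had medians of 42300 CPM in cortex-labelled and 51800 CPM in brainstem-labelled libraries, astrocyte markers 608 and 724 CPM, endothelium and pericyte markers 36.4 and 71.4 CPM, and T and NK cell markers 5.24 and 17.7 CPM. Most of the astrocyte sum was Slc1a3 (medians 595 and 721 CPM). Gfap (1.55 and 0 CPM), Aldh1l1 (3.72 and 0.803 CPM), Aldoc (4.13 and 1.24 CPM), S100b and Gja1 were higher under the cortex label. Aqp4 and Slc1a2 were lower there, near the floor. The T and NK sum was mostly Klrd1 (5.24 and 17.7 CPM), with Cd3e at 0 in 19 libraries. Pecam1 (27.3 and 56.4 CPM) was most of the endothelium and pericyte sum, with Cldn5 at 0 in 18 libraries. Of that list, Pdgfrb (2.03 and 4.03 CPM) was also lower under the cortex label by median. Flt1 (2.1 and 0.492 CPM) and Kdr (5.4 and 5.19 CPM) were higher there. The part of these cells in the region differences was not tested.

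**Figure D2:**
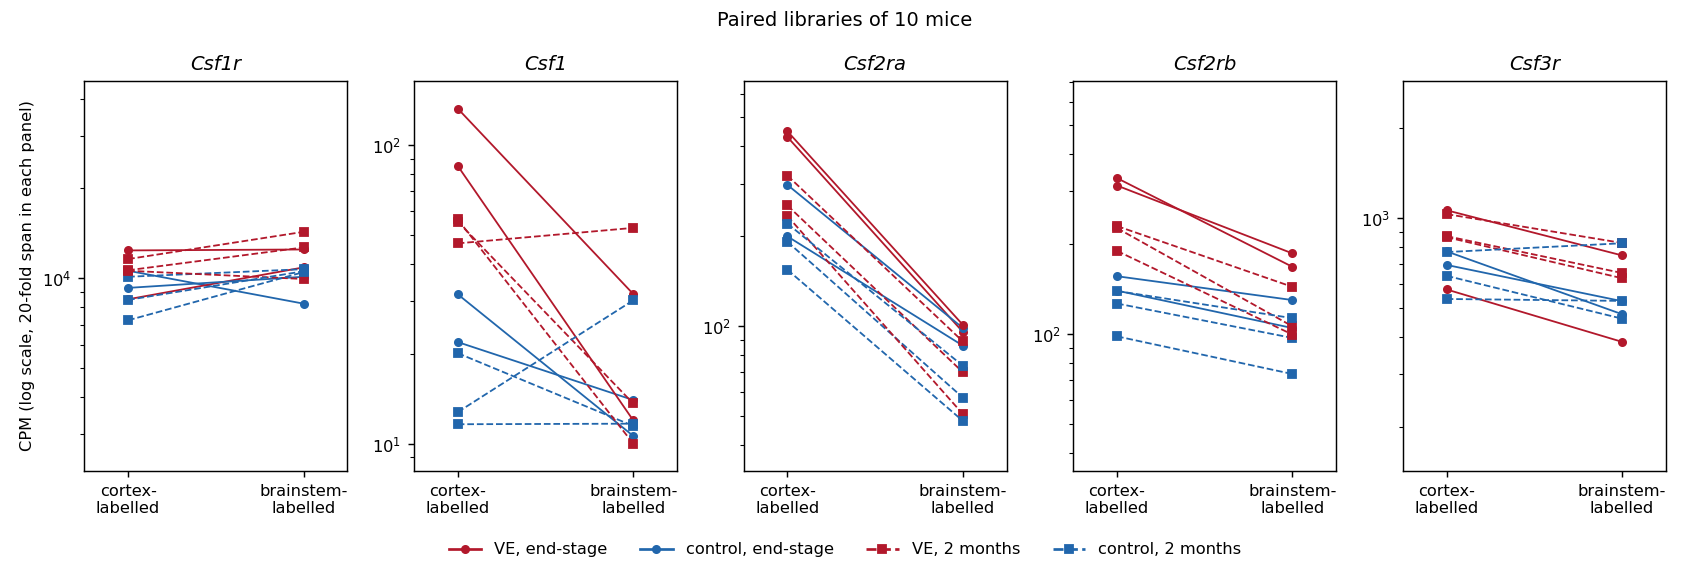
CPM on a log scale spanning 20-fold in each panel, for the cortex-labelled (left) and brainstem-labelled (right) libraries of each of 10 mice, joined by a line; red is VE, blue is control, circles with solid lines are end-stage and squares with dashed lines are 2 months. All 10 lines for Csf2ra and Csf2rb fall to the right, 9 of 10 do for Csf3r, 7 of 10 for Csf1 and 2 of 10 for Csf1r.

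The chains of the GM-CSF receptor differed between regions in different proportion. Per kb of exon, Csf2ra over Csf2rb was 2.8 to 4.83 (median 3.6) in cortex-labelled libraries and 1.24 to 2.12 (median 1.59) in brainstem-labelled ones. The ranges did not overlap, and the alpha chain exceeded the beta chain in every library. This ratio is computed from the values that gave the region differences above and adds no separate evidence of them.

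**Figure D3:**
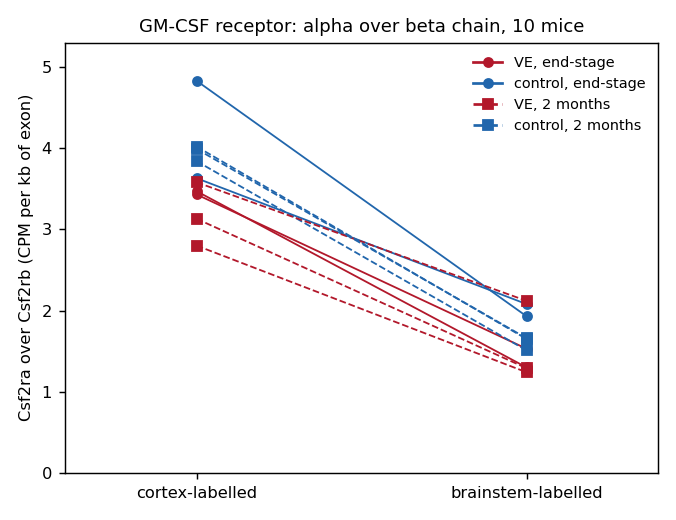
Ratio of Csf2ra to Csf2rb, each in CPM per kb of exon (linear axis from 0), in the cortex-labelled and brainstem-labelled libraries of 10 mice; red is VE, blue is control, circles with solid lines are end-stage and squares with dashed lines are 2 months. Cortex-labelled libraries lie between 2.8 and 4.83 and brainstem-labelled libraries between 1.24 and 2.12.

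Between genotypes, Csf2rb was the member called, in cortex-labelled libraries at both stages. At end-stage it had 314 and 333 CPM in VE mice M1376 and M1524, against 139.6 and 156 CPM in controls M1375 and M1521, a log2 difference of 1.13 ± 0.22 (adjusted p = 0.00825, edgeR's quasi-likelihood test). At 2 months it had 229.7, 189.6 and 226 CPM in VE mice M2617, M2621 and M2624, against 126, 139 and 98.1 CPM in controls M2618, M2629 and M2633, a difference of 0.83 ± 0.18 (adjusted p = 0.0113, same test). The groups did not overlap at either stage. Csf2rb2, which shares stretches of sequence with Csf2rb, was called alongside it, at 1.30 ± 0.26 at end-stage (adjusted p = 0.00928) and 0.93 ± 0.21 at 2 months (adjusted p = 0.0142).

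These 2 calls make 1 of 5 members called in the cortex-labelled comparison at each stage, beside 4.01% of all genes at end-stage (1.83% higher) and 5.45% at 2 months (3.64% higher). The end-stage call was lost without M1375 (adjusted p = 0.135), without M1524 (0.0699) and when the 2-month mice, which share the estimate of spread, were read by the sample record (0.116), and it remained with the end-stage mice alone (1.14, adjusted p = 0.0201). The 2-month call depended on the reading: by the sample record the difference was -0.31 ± 0.26 (adjusted p = 1). It was also lost without the 4 mice of conflicting genotype (0.71, adjusted p = 0.593, with 1 mouse a group and the spread taken from the other groups) and without M2633 (0.0510).

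Csf1 had the largest difference among the members without passing the test. Its end-stage cortex-labelled libraries had 85.3 and 133 CPM in VE mice, against 21.9 and 31.7 CPM in controls (2.02 ± 0.65, adjusted p = 0.0999, edgeR's quasi-likelihood test). At 2 months the cortex-labelled values were 46.9, 56.4 and 55.5 CPM in VE mice M2617, M2621 and M2624 and 20.1, 12.8 and 11.6 CPM in controls M2618, M2629 and M2633 (1.83 ± 0.53, adjusted p = 0.0526). The VE libraries were the higher ones at both stages with no overlap. DESeq2's Wald test called the 2-month difference (adjusted p = 0.0214), edgeR without M2617 did too (0.0248), and with no filter on low counts Csf1 was called at both stages. By the sample record the 2-month difference was -0.41 ± 0.61 (adjusted p = 1).

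Csf2ra in cortex-labelled libraries of end-stage mice, given above, gave a VE minus control difference of 0.82 ± 0.26, which did not pass the test (adjusted p = 0.0936, edgeR's quasi-likelihood test), and DESeq2's Wald test called it (0.0284). At 2 months the difference was 0.51 ± 0.21 (adjusted p = 0.187), and by the sample record -0.09 ± 0.26 (adjusted p = 1). At neither stage did the groups overlap, the VE values being the higher ones.

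Csf3r in cortex-labelled libraries had 577 and 1062 CPM in VE end-stage mice M1376 and M1524, against 773 and 697 CPM in controls M1375 and M1521. The control values lay between those of the VE mice, and the difference of 0.16 ± 0.32 was not called (adjusted p = 0.856, edgeR's quasi-likelihood test). At 2 months the values were 869.9, 863 and 1031 CPM in VE mice M2617, M2621 and M2624 and 640 (M2618), 769 (M2629) and 536 CPM (M2633) in controls, with no overlap (0.51 ± 0.26, adjusted p = 0.296). By the sample record the 2-month difference was -0.18 ± 0.29 (adjusted p = 1).

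Csf1r in cortex-labelled libraries had 8507 and 12400 CPM in VE end-stage mice, around the 10600 and 9288 CPM of the controls M1375 and M1521 (0.07 ± 0.19, adjusted p = 0.898, edgeR's quasi-likelihood test). At 2 months it had 11600, 10600 and 10640 CPM in VE mice M2617, M2621 and M2624, against 10120, 7235 and 8467 CPM in controls M2618, M2629 and M2633. The groups at 2 months did not overlap, but the difference of 0.35 ± 0.16 was not called (adjusted p = 0.236), and by the sample record it was -0.010 ± 0.20 (adjusted p = 1).

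Counted by overlap, 3 of 5 members (Csf1, Csf2ra and Csf2rb) had every VE value above every control value in cortex-labelled libraries at end-stage, where 25.1% of all genes did so, and at 2 months, by mouse number, 5 of 5 did, where 13.4% of all genes did so. No member had every VE value below every control value, against 24% of all genes at end-stage and 11.3% at 2 months. Under the sample-record reading, the 2-month cortex-labelled differences of all 5 members were below 0 and 0 members were called by edgeR.

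In brainstem-labelled libraries edgeR called 0 of 5 members between genotypes at either stage, where 0.151% of all genes were called at end-stage and 0.0362% at 2 months, and DESeq2's Wald test called 0 at both. At an unadjusted p under 0.05 the count was 1 member (Csf2rb) at end-stage and 0 at 2 months, beside 1731 and 1461 of the 16595 genes. Csf2rb had 186 and 168 CPM in VE end-stage mice M1376 and M1524, against 105 and 129.8 CPM in controls M1375 and M1521 (0.59 ± 0.22, adjusted p = 0.339, edgeR's quasi-likelihood test). Csf1r had 10880 and 12490 CPM in VE end-stage mice, against 8225 and 10120 CPM in controls (0.35 ± 0.20, adjusted p = 0.567). These 2 members were the ones without overlap at end-stage, as were 18.5% of all genes with VE higher. At 2 months 0 members were without overlap with VE higher, against 7.19% of all genes. No member was without overlap with VE lower, against 20.5% of all genes at end-stage and 6.51% at 2 months.

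The remaining brainstem-labelled values show single mice standing apart. Csf1 had 12.0 and 31.8 CPM in VE end-stage mice M1376 and M1524, against 14.02 and 10.6 CPM in controls M1375 and M1521. At 2 months it had 52.9, 10.0 and 13.7 CPM in VE mice M2617, M2621 and M2624, against 11.5, 30.2 and 11.7 CPM in controls M2618, M2629 and M2633. In each of the VE groups and in the 2-month control group 1 mouse lay well above the others (M1524, M2617 and M2629). By mouse number the 2-month difference was 0.51 ± 0.52 (adjusted p = 0.823, edgeR's quasi-likelihood test), and by the sample record it was -1.34 ± 0.62 (adjusted p = 1).

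Csf3r in brainstem-labelled libraries had 385 and 749.6 CPM in VE end-stage mice M1376 and M1524, against 476 and 527 CPM in controls M1375 and M1521. At 2 months it had 654, 629 and 825 CPM in VE mice M2617, M2621 and M2624, against 460 (M2618), 823 (M2629) and 528 CPM (M2633) in controls. The groups overlapped at both stages, and the end-stage difference was 0.18 ± 0.32 (adjusted p = 0.923, edgeR's quasi-likelihood test). For Csf2ra, whose brainstem-labelled values are given above, the end-stage difference was 0.09 ± 0.26 (adjusted p = 0.966) with overlapping groups.

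Csf1r in brainstem-labelled libraries at 2 months had 14310, 9947 and 12690 CPM in VE mice M2617, M2621 and M2624, against 10730, 10490 and 10560 CPM in controls M2618, M2629 and M2633. The VE values spread around the controls, which lay close together. Csf2rb at 2 months had 144, 99.5 and 106 CPM in the same VE mice, against 96.9, 113 and 73.4 CPM in the controls, with overlap. The log2 differences at 2 months by mouse number were 0.22 ± 0.16 for Csf1r, 0.30 ± 0.18 for Csf2rb, 0.22 ± 0.21 for Csf2ra and 0.22 ± 0.26 for Csf3r, and none was called. By the sample record they were -0.0325 ± 0.20 for Csf1r, -0.37 ± 0.26 for Csf2rb, 0.0004 ± 0.26 for Csf2ra and -0.22 ± 0.29 for Csf3r (adjusted p = 1 for each, edgeR's quasi-likelihood test).

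**Figure D4:**
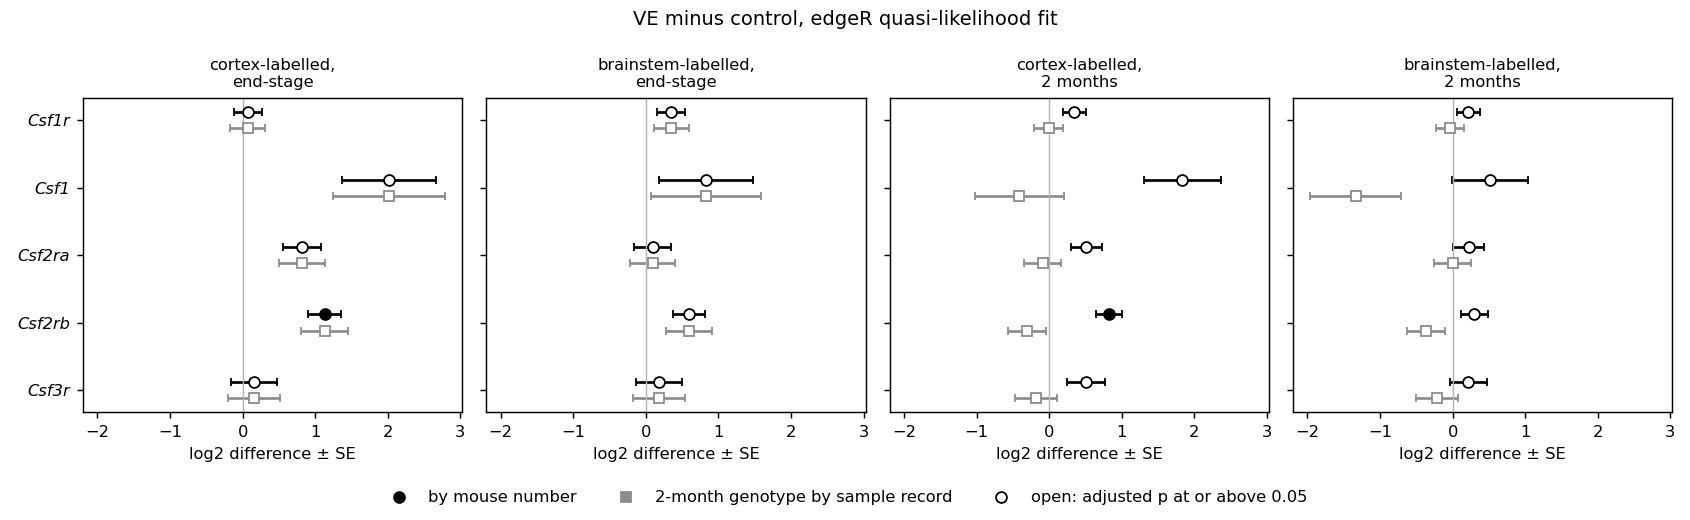
Log2 difference of VE minus control with its standard error, from edgeR's quasi-likelihood fit, for the 5 tested members in 4 comparisons. Black circles use the genotype by mouse number and grey squares the 2-month genotype by the sample record, and filled symbols mark an adjusted p under 0.05: Csf2rb in cortex-labelled libraries at end-stage (1.13) and at 2 months (0.83), by mouse number only.

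Marker lists of other cells moved with genotype by mouse number in the cortex-labelled libraries, and some did so in the brainstem-labelled ones. The cortex-labelled values come first. Monocyte markers summed to 143 and 948 CPM in VE end-stage mice, against 9.43 and 26.2 CPM in controls, and to 168 to 213 CPM in 2-month VE mice, against 6.94 to 23.1 CPM in controls. Of those 10 markers, Fn1 reached 863 CPM, Ms4a4c 112 CPM and Plac8 97.9 CPM in their highest library, while Ccr2 stayed at 10.1 CPM or below. Border macrophage markers summed to 61.2 and 282 CPM in VE end-stage mice, against 25.9 and 31.7 CPM in controls, and to 68.7 to 117 CPM in 2-month VE mice, against 2.79 to 35.4 CPM in controls. Of these markers, Siglec1 reached 218 CPM and Ms4a7 45.9 CPM in their highest library. Mrc1, Cd163, Lyve1, Pf4, Cbr2, F13a1, Clec12a and Cd209f stayed at 7.53 CPM or below in every library. Microglia markers moved the opposite way, at 26400 and 29700 CPM in VE end-stage mice, against 44700 and 47600 CPM in controls, and at 39100 to 39900 CPM in 2-month VE mice, against 47000 to 49400 CPM in controls. Markers of oligodendrocyte precursors summed to 37.3 and 88.7 CPM in VE end-stage mice, against 5.82 and 6.5 CPM in controls, a sum made up almost wholly of Cspg4 in the VE libraries. Cspg4, which pericytes also express, had 37 and 87.8 CPM in VE end-stage mice M1376 and M1524, against 0.212 and 1.16 CPM in controls M1375 and M1521. Pdgfra, the defining marker of these precursors, stayed at 0.273 CPM or below in every library. Olig1 and Sox10 went the other way. Olig1 had 0 and 0.325 CPM in the same VE mice, against 2.97 and 3.76 CPM in the same controls. Sox10 had 0.0545 and 0 CPM against 2.65 and 0.684 CPM. Olig2 and Vcan stayed at 0.684 CPM or below in these end-stage libraries. Markers of endothelium and pericytes summed to 66.4 to 72.5 CPM in 2-month VE mice, against 21.9 to 34.2 CPM in controls. In their highest library of all 20, Pecam1 reached 115 CPM, Flt1 31.4 CPM, Kdr 20.4 CPM and Pdgfrb 15.4 CPM. Cldn5, Ly6c1, Slco1a4, Rgs5 and Kcnj8 stayed at 0.41 CPM or below. By the sample record the 2-month sums overlapped between VE and control for 4 lists, with monocyte markers at 6.94 to 211 CPM in VE and 23.1 to 213 CPM in control libraries, border macrophage markers at 2.79 to 117 and 26.4 to 102 CPM, microglia markers at 39400 to 49400 and 39100 to 49200 CPM, and endothelium and pericyte markers at 21.9 to 72.5 and 33 to 72.4 CPM. In brainstem-labelled libraries monocyte markers summed to 19.5 and 137 CPM in VE end-stage mice, against 5.2 and 16.9 CPM in controls. At 2 months, by mouse number, they summed to 14.7 to 38.7 against 7.46 to 9.93 CPM. Endothelium and pericyte markers there had 73.4 and 77.6 against 58 and 61.8 CPM, then 110 to 120 against 54.8 to 69.5 CPM. Microglia markers there had 34100 and 44600 against 49100 and 54800 CPM at end-stage, with overlap at 2 months. The part of these lists in the Csf1, Csf2ra and Csf2rb values was not tested.

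Whether the genotype difference itself differed between region labels was tested for each stage within mice. EdgeR's quasi-likelihood test called 0 of 5 members at end-stage, beside 0.38% of all genes, and 0 of 5 at 2 months, beside 0.723%, with 2 members under an unadjusted p of 0.05 at each stage. The nearest at end-stage was Csf2ra: its cortex-labelled library exceeded the brainstem-labelled one by 4.45-fold and 4.5-fold in VE mice, against 2.32-fold and 3.02-fold in controls (0.76 ± 0.21, adjusted p = 0.257). At 2 months the nearest was Csf2rb, with 1.6-fold to 2.13-fold in VE mice, against 1.23-fold to 1.34-fold in controls (0.53 ± 0.17, adjusted p = 0.227). DESeq2's Wald test called 1 member at each stage, Csf2ra at end-stage (0.0311) and Csf2rb at 2 months (0.0395), beside 212 and 506 of the 16595 genes. With no filter on low counts, edgeR called Csf1 at end-stage (1.31, adjusted p = 0.0483) and at 2 months (1.60, adjusted p = 0.000103), where with the filter the differences were 1.32 ± 0.77 (adjusted p = 0.834) and 1.61 ± 0.66 (adjusted p = 0.382). By the sample record the 2-month values were 0.66 ± 0.81 for Csf1 (adjusted p = 0.921) and -0.0050 ± 0.23 for Csf2rb (adjusted p = 1).

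Between end-stage and 2 months edgeR called 0 of 5 members in any of 4 comparisons, where it called 1.84% of all genes in VE cortex-labelled libraries, 0.0422% in VE brainstem-labelled libraries and 0% in control libraries of either label. DESeq2's Wald test called 0 members in all 4, and called 35 genes in control libraries with the cortex label and 55 in those with the brainstem label, where edgeR gave 1432 and 1367 genes an unadjusted p under 0.05. Csf2ra in VE cortex-labelled libraries differed by 0.71 ± 0.23, end-stage minus 2 months (adjusted p = 0.147, edgeR's quasi-likelihood test), and Csf2rb by 0.59 ± 0.20 (adjusted p = 0.162), both with an unadjusted p under 0.05. Csf2rb in VE and Csf2ra in control brainstem-labelled libraries were also under that level, at 0.60 ± 0.20 (adjusted p = 0.317) and 0.63 ± 0.24 (adjusted p = 0.544). The difference of the genotype differences between stages gave 0 members at adjusted or unadjusted p under 0.05 in either region label by edgeR and 0 adjusted by DESeq2's Wald test, beside 0.265% of all genes under the cortex label and 0.00603% under the brainstem label by edgeR. Each stage comparison sets 2 mice against 3 and uses the 2-month genotypes, so it shares the conflict of labels described above.

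Genes that act with these receptors were taken as 60 genes in 4 lists: other ligands and receptor chains, adaptors and kinases, STAT proteins with feedback regulators, and transcription factors. Of the 53 tested, 6 were called higher and 2 lower in VE cortex-labelled libraries at end-stage (15.1%, beside 4.01% of all genes; median log2 difference 0.31 beside 0.02 for all genes), and 7 higher and 2 lower at 2 months (17%, beside 5.45% of all genes; median 0.22 beside -0.01). In brainstem-labelled libraries edgeR called 0 at both stages, beside 0.151% of all genes at end-stage and 0.0362% at 2 months. Under an unadjusted p of 0.05 were 9 at end-stage and 13 at 2 months, beside 1731 and 1461 of the 16595 genes. DESeq2's Wald test called 1 and 3, beside 354 and 198 of the 16595 genes. With no filter on low counts, 56 of the genes were tested, and edgeR called 9 higher and 4 lower at end-stage and 18 higher and 2 lower at 2 months in cortex-labelled libraries, and 5 higher and 0 lower at each stage in brainstem-labelled ones. Among all genes that setting called 1282 at end-stage under the cortex label. At 2 months under the cortex label no setting called more than 1562 genes. Under the brainstem label the setting without a filter called 574 at end-stage and 499 at 2 months. It tested more genes than the 16595, and as their number is not given here, these counts have no share beside them. The lists were chosen with earlier results in view, and the counts describe them only.

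Among transcription factors at end-stage, Egr1, an immediate-early target of ERK signalling, averaged 160 ± 1.16 CPM in VE cortex-labelled libraries and 5.41 ± 2.53 CPM in control ones (SD, n = 2 each; 4.91 ± 0.68 on the log2 scale, adjusted p = 0.000537, edgeR's quasi-likelihood test). Bhlhe40 averaged 84.1 ± 39.8 CPM in VE and 3.13 ± 2.63 CPM in control libraries (4.71 ± 1.14, adjusted p = 0.0270). Ets1 fell to 61 ± 9.67 CPM in VE libraries, against 114 ± 6.56 CPM in control ones (-0.90 ± 0.19, adjusted p = 0.0110). The adaptors and kinases gave 0 calls by edgeR of 21 tested at either stage in these libraries. All 8 calls at end-stage were lost when the 2-month mice were read by the sample record (Egr1 at adjusted p = 0.0588), and in each of the 8 except Egr1 at least 1 single mouse ended the call.

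At 2 months the feedback regulators of cytokine receptors, Socs1 and Socs3, were called, as was Stat3. Socs1 averaged 36.4 ± 4.15 CPM in VE and 15.1 ± 0.874 CPM in control cortex-labelled libraries (SD, n = 3 each; 1.27 ± 0.23, adjusted p = 0.00330, edgeR's quasi-likelihood test), and Socs3 149 ± 37.2 CPM in VE and 59.4 ± 18.7 CPM in control libraries (1.33 ± 0.33, adjusted p = 0.0254). Egr1 averaged 83.3 ± 50.8 CPM in VE and 11.8 ± 7.21 CPM in control libraries (2.82 ± 0.50, adjusted p = 0.00285). Irf8, which microglia need for their identity, averaged 1370 ± 131 CPM in VE and 933 ± 78.6 CPM in control libraries (0.56 ± 0.15, adjusted p = 0.0385). Ets1 was lower again, at 65.3 ± 3.72 CPM in VE and 114 ± 16.3 CPM in control libraries (-0.81 ± 0.15, adjusted p = 0.00453), and Tfec, at 0 CPM in the 3 VE libraries and 0.631 ± 0.346 CPM in control libraries, was near the floor. By the sample record the differences were -0.35 for Socs1, -0.31 for Socs3, -0.94 for Egr1, -0.19 for Irf8 and 0.43 for Ets1 (adjusted p = 1 for each). All 9 calls were lost under that reading and without the 4 mice of conflicting genotype. Socs1, Egr1 and Ets1 were the 3 that also held when any single mouse was left out.

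Between regions 8 of the 53 were called higher and 3 lower in cortex-labelled libraries (20.8%, beside 14.3% of all genes). Il3ra, the alpha chain of the IL-3 receptor that joins CSF2RB, averaged 7.42 ± 5.67 CPM under the cortex label and 3.63 ± 3.53 CPM under the brainstem label (SD, n = 10 each; 1.20 ± 0.29, adjusted p = 0.0132, edgeR's quasi-likelihood test), and Csf2rb2 averaged 59.6 ± 28.1 CPM and 35.8 ± 10.2 CPM (0.66 ± 0.11, adjusted p = 0.00189). The alpha and beta chains detected here for GM-CSF and IL-3 receptors were all called higher in cortex-labelled libraries. Bhlhe41 averaged 79.9 ± 23.6 CPM in cortex-labelled and 48.5 ± 13.2 CPM in brainstem-labelled libraries (0.72 ± 0.09, adjusted p = 0.000324), its relative Bhlhe40 21.8 ± 35.8 and 1.4 ± 1.59 CPM (3.35 ± 0.55, adjusted p = 0.00125), Myc 109 ± 35.1 and 64.1 ± 21.5 CPM (0.77 ± 0.10, adjusted p = 0.000325) and Cebpb, a myeloid transcription factor, 176 ± 80.7 and 117 ± 35.5 CPM (0.53 ± 0.12, adjusted p = 0.00926). Gab1, an adaptor of receptor signalling, was lower, at 34.8 ± 10.2 CPM in cortex-labelled and 64.7 ± 18.1 CPM in brainstem-labelled libraries (-0.89 ± 0.17, adjusted p = 0.00268), as was Pik3cg, the gamma catalytic subunit of PI3-kinase, at 131 ± 28.6 and 176 ± 29.6 CPM (-0.43 ± 0.11, adjusted p = 0.0168). Socs3 averaged 101 ± 47.1 CPM in cortex-labelled and 57.6 ± 15.1 CPM in brainstem-labelled libraries (0.72 ± 0.15, adjusted p = 0.00508). Of the 11 calls, 7 held in all 15 alternatives. Il3ra was lost without the mouse block and without the 4 mice of conflicting genotype, and Pik3cg without M1524 (adjusted p = 0.0501).

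The genes whose log2 CPM followed each member most closely over the 20 libraries were sought among 8226 genes of at least moderate level, as a description with no test, since the libraries share regions, genotypes and mice. Csf1r was followed by Map3k11 (Pearson r = 0.945), Atf6b (0.925) and Snd1 (0.905). Csf2ra was followed by AU020206 (0.943), Tpd52 (0.937) and Fxyd5 (0.918), and Csf2rb by, among others, its copy Csf2rb2 (0.917) and Cybb (0.914), which encodes the catalytic chain of the phagocyte NADPH oxidase. Csf1 was followed by Itga5 (0.928), Igsf8 (0.907) and Slc45a4 (0.893), and Csf3r by Icam1 (0.831), Slc7a5 (0.819) and Tspan32 (0.818).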

How the data were processed

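Raw counts, whole numbers without normalization, are what the authors deposited, in 1 table for all libraries; FastQC, Subread, edgeR and the mouse build mm10 are named per the submitters' processing notes. The annotation, strand setting and treatment of reads that match several genes are not given in the sources used here. Of 55487 gene identifiers, 55094 were matched to symbols. The test was edgeR's (version 4.0.16, R 4.3.3; TMM, filterByExpr over the 8 groups, quasi-likelihood test, Benjamini-Hochberg adjustment over the 16595 genes kept, threshold 0.05). Genotype, stage and their interaction came from 1 model of 8 groups. The region difference, and the genotype difference between regions, had the mouse as a block, because both libraries of a number come from 1 mouse. Likeness used log2 CPM with a prior count of 2, among genes averaging at least 3 on that scale. Alternatives were DESeq2 1.42.0 (Wald test, size factors), no filter, the sample-record genotypes, no block and leaving out each mouse; end-stage mice only and leaving out the 4 mice of conflicting genotype were chosen after seeing the data. The tests were tried on simulated counts. The 6 members, the gene lists and the settings were chosen with earlier results of these data known. Named genes were the members, the 3 closest genes of each, and up to 4 called genes per pathway list and comparison by smallest p. A few genes that this rule or the marker lists hold are not reported here by name.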

Additional observations from a re-analysis of the deposited data

How the results depend on the processing

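Csf2ra and Csf2rb between regions kept their direction and their call under all 15 alternatives, over 1.76 to 1.86 for Csf2ra and 0.57 to 0.66 for Csf2rb. With no replicate block, which drops the pairing by mouse, 3 members were called between regions (Csf3r at 0.36, adjusted p = 0.0963); no other call of a member changed without the block. Between genotypes the calls of Csf2rb rest on 2 or 3 mice a group and on how the 2-month labels are read; for the differences that follow the cause was not tested. The depth of the table gives no limit for these members except Il34, whose 7 counts allow no comparison.

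Members called: in cortex-labelled libraries at end-stage edgeR called 1, DESeq2's Wald test 2, no filter 3, the sample record 0, leaving out the 4 mice of conflicting genotype 2, and leaving out 1 mouse 0 to 1. At 2 months edgeR called 1, DESeq2's Wald test 2, no filter 2, the sample record 0, leaving out the 4 mice 0 and leaving out 1 mouse 0 to 2. Among all genes in cortex-labelled libraries, the end-stage counts were 666 by edgeR, 1203 by DESeq2's Wald test, 1282 with no filter and 171 by the sample record. At 2 months they were 904 by edgeR, 1562 by DESeq2's Wald test and 1 by the sample record. For the genotype difference between regions DESeq2's Wald test and no filter each called 1 member at end-stage and 1 at 2 months. Among all genes the Wald test called 212 and 506 there, and no filter 310 and 609. For stage in VE cortex-labelled libraries no filter called 2 members, beside 963 of all genes. Between regions leaving out the 4 mice left 2 members, beside 976 of all genes.

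Reversed by the sample record, in log2: VE minus control at 2 months in cortex-labelled libraries, Csf1r -0.010, Csf1 -0.41, Csf2ra -0.089, Csf2rb -0.31 and Csf3r -0.18; in brainstem-labelled libraries, Csf1r -0.0325, Csf1 -1.34, Csf2rb -0.37 and Csf3r -0.22. End-stage minus 2 months in VE cortex-labelled libraries, Csf1r 0.10 and Csf3r 0.16; in control cortex-labelled libraries, Csf1 -0.53, Csf2rb -0.33 and Csf3r -0.18; in VE brainstem-labelled libraries, Csf1r 0.045 and Csf1 0.83; in control brainstem-labelled libraries, Csf2rb -0.018. Genotype by stage in cortex-labelled libraries, Csf1r 0.082 and Csf3r 0.34; in brainstem-labelled libraries, Csf2ra 0.091 and Csf3r 0.39. Genotype by region at 2 months, Csf2ra -0.13 and Csf2rb -0.0050.

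Reversed without the 4 mice of conflicting genotype: VE minus control at 2 months in brainstem-labelled libraries, Csf1 -1.16, Csf2rb -0.10 and Csf3r -0.0050; stage in control cortex-labelled libraries, Csf3r -0.064; stage in VE brainstem-labelled libraries, Csf1 0.68; genotype by stage, Csf1 -0.10 in cortex-labelled and Csf3r 0.19 in brainstem-labelled libraries. Csf3r in genotype by region at end-stage turned to 0.0052 with DESeq2 size factors and 0.0053 with its Wald test.

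Leaving out 1 mouse turned the sign of uncalled differences over these ranges. VE minus control at end-stage: Csf1r -0.23 to 0.32 and Csf3r -0.35 to 0.54 in cortex-labelled, Csf1 -0.030 to 1.35, Csf2ra -0.015 to 0.20 and Csf3r -0.37 to 0.57 in brainstem-labelled libraries; at 2 months in brainstem-labelled libraries, Csf1 -0.60 to 1.13. Stage in VE: Csf1r -0.36 to 0.18 and Csf3r -0.67 to 0.20 in cortex-labelled, Csf1r -0.21 to 0.067, Csf1 -1.08 to 0.91 and Csf3r -0.86 to 0.12 in brainstem-labelled libraries. Stage in control brainstem-labelled libraries: Csf1 -0.75 to 0.13 and Csf3r -0.42 to 0.056. Genotype by stage: Csf1 -0.16 to 0.48 and Csf3r -0.85 to 0.031 in cortex-labelled, Csf1r -0.012 to 0.29, Csf1 -0.54 to 1.43, Csf2ra -0.32 to 0.081 and Csf3r -0.59 to 0.36 in brainstem-labelled libraries. Genotype by region at end-stage: Csf3r -0.16 to 0.13.

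Genes called, with the lowest and highest count over the alternatives, were as follows. VE against control gave 666 (171 to 1282) in cortex-labelled libraries at end-stage and 904 (1 to 1562) at 2 months, and in brainstem-labelled libraries 25 (1 to 574) at end-stage and 6 (0 to 499) at 2 months. Regions gave 2380 (976 to 3402), and genotype by region 63 (5 to 310) at end-stage and 120 (0 to 609) at 2 months. Stage in VE gave 305 (24 to 963) in cortex-labelled and 7 (2 to 423) in brainstem-labelled libraries, stage in control 0 (0 to 282) and 0 (0 to 270), and genotype by stage 44 (2 to 565) and 1 (0 to 190). The highest came with no filter, except for region and for the 2-month cortex-labelled comparison (DESeq2's Wald test).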
